A study of Mus musculus with 36 samples.

Results

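Myosin heavy chain is the motor protein of the thick filament of muscle, and each muscle fibre is classed by the heavy chain gene it uses. Myh7 encodes the beta or slow chain of slow fibres and of heart, and Myh4 the fast IIB chain of the quickest fibres in rodent limb muscle. On the mouse MG_U74Av2 array 4 of 12488 probe sets were annotated to Myh7 or Myh4 alone, 2 for each gene, and all 4 were taken. They were described separately, since probe sets of the same gene may match different parts of its transcripts. The main Myh7 probe set was 98616_f_at and the second 161547_f_at. The main Myh4 probe set was 98488_at and the second 161545_r_at. In this array's naming the ending _f marks probes that may match a family of sequences, and _r a probe set for which some design rules were dropped.

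The series is titled a mouse model of nemaline myopathy, a muscle disease with rod-shaped deposits of thin-filament protein in the fibres. It compared wild-type mice with mice carrying a transgene for alpha tropomyosin slow, a thin-filament protein of slow fibres, in diaphragm and in 4 leg muscles (tibialis anterior, extensor digitorum longus, gastrocnemius and plantaris), at 7 and 10 months of age. There were 36 arrays, 18 for each genotype, and the RNA on each came from a pool of 3 to 5 mice. Diaphragm, gastrocnemius and tibialis anterior had 4 arrays for each genotype, and extensor digitorum longus and plantaris 3. The sources used here do not give the strain, the promoter or form of the transgene, or whether the pools of a group held separate mice. The p-values below therefore measure the spread between these arrays, which may in part be technical. In whole muscle, fewer fibres of a type and less RNA in each fibre cannot be told apart.

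In adult limb muscle the slow chain is made together with slow light chains and slow troponins, and the fast chains with their fast partners. Nerve activity, through calcium signalling, is known to set which programme a fibre runs. Myh4 lies at chr11:67237812-67260447 on the forward strand of the mouse genome GRCm38.p6, in the cluster of skeletal fast and developmental heavy chains. Myh7 lies at chr14:54970684-54994626 on the reverse strand, beside Myh6, the alpha chain of heart. Each array's signals were scaled to a trimmed mean of 500, and differences are given as log2(signal + 50), so that a difference of 1 is close to a doubling except at signals near 50, where it is understated. Of the 12488 probe sets, 9322 reached a signal of 100 on at least 6 arrays and were tested, and p-values were adjusted over all 9322 with a threshold of 0.05 (limma, Benjamini-Hochberg). All 4 members passed that filter. The Myh7 probe set 98616_f_at and the Myh4 probe set 98488_at reached 100 on 36 of 36 arrays, 161545_r_at on 35 and 161547_f_at on only 11.

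The 250 bases before the RefSeq start of each gene are shown because muscle promoters are often described by a few short motifs, and the 2 genes followed different muscles in these data. Capitals mark every match on either strand to the E-box (CANNTG, the site of myogenic factors such as MyoD), the MCAT box (CATTCC, or GGAATG on the other strand, the site of TEAD factors) and the MEF2 consensus. Each sequence runs 5′ to 3′ along its gene's own strand.
Myh7, chr14:54994627-54994876, reverse strand: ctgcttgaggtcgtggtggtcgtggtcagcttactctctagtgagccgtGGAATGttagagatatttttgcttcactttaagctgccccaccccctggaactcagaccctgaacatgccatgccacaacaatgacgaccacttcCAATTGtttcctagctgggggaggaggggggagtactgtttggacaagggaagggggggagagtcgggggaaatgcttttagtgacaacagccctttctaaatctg
Myh4, chr11:67237562-67237811, forward strand: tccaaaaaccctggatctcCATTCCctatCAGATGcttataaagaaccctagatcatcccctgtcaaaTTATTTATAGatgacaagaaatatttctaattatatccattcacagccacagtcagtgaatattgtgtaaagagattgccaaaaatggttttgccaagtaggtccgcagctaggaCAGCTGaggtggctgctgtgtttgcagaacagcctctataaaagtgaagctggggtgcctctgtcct
The Myh7 stretch held an MCAT box on the reverse strand, starting at base -201 from the start, and an E-box at -106. In Myh4 an MCAT box started at -231, E-boxes at -221 and -67, and a MEF2 match at -182. No match overlapped another. Over the same 250 bases of the 32851 promoters in the RefSeq table, 66.2% held an E-box, 12.6% an MCAT box and 2.92% a MEF2 match. These are letters in a window, not measured binding. RefSeq gives Myh7 a second start 77 bases downstream, whose window overlaps the first and is not printed. Counted from that start, the window held E-boxes at -183 and -62 and no MCAT box or MEF2 match.

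In wild-type mice the main Myh7 probe set separated tibialis anterior from the other 4 muscles. Its signals in tibialis anterior were 794.8 and 383.9 at 7 months and 207.8 and 173.4 at 10 months. In plantaris they were 21671.0, 24798.0 and 20756.3, in gastrocnemius 16229.5, 21855.0, 17068.1 and 18331.6, in diaphragm 8212.7, 18265.0, 15824.1 and 16345.0, and in extensor digitorum longus 10529.6, 9892.0 and 7152.2. Here and below the first 2 values of a group are at 7 months and the others at 10 months. The tibialis anterior values overlapped with those of no other muscle, and the lowest array elsewhere, from extensor digitorum longus, stood at 7152.2. The share of all probe sets that separate tibialis anterior in this way was not counted. Group means fell in the order plantaris (22408.4 ± 2119.4, SD, n = 3), gastrocnemius (18371.0 ± 2478.1, n = 4), diaphragm (14661.7 ± 4425.6, n = 4), extensor digitorum longus (9191.3 ± 1794.4, n = 3) and tibialis anterior (390.0 ± 285.2, n = 4). The top and bottom of this order differed 57.5-fold. Extensor digitorum longus is usually described as a fast muscle in the mouse, and its Myh7 signal here did not differ from that of diaphragm beyond the threshold (log2 difference -0.47 ± 0.47, SE, adjusted p = 0.632). Diaphragm arrays also carried liver RNA, described below, and its part in their Myh7 level was not tested.

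The test of any difference among the 5 wild-type muscles gave F = 51.6 for this probe set (adjusted p = 3.08e-09), where 11.4% of all probe sets tested passed. Tibialis anterior lay lower than diaphragm by a log2 difference of -4.82 ± 0.46 (adjusted p = 2.31e-08), than extensor digitorum longus by -4.35 ± 0.47 (adjusted p = 1.91e-06), than gastrocnemius by -5.40 ± 0.46 (adjusted p = 6.75e-09) and than plantaris by -5.70 ± 0.47 (adjusted p = 2.91e-09). Lower calls made up 7.49% of all probe sets in the comparison with diaphragm, but only 0.172% with extensor digitorum longus, 0.236% with gastrocnemius and 0.215% with plantaris, so the low Myh7 of tibialis anterior belonged to a small set of differences among limb muscles. None of the 6 pairs among the other 4 muscles passed. Plantaris exceeded extensor digitorum longus by 1.35 ± 0.48 with an unadjusted p of 0.00885 (adjusted p = 0.954). These differences refer to the 7-month level of a model in which age acts alike in both genotypes of a muscle. The median difference of all probe sets between wild-type tibialis anterior and diaphragm was 0.17, and at most 0.04 in size against the other 3 muscles.

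**Figure D1:**
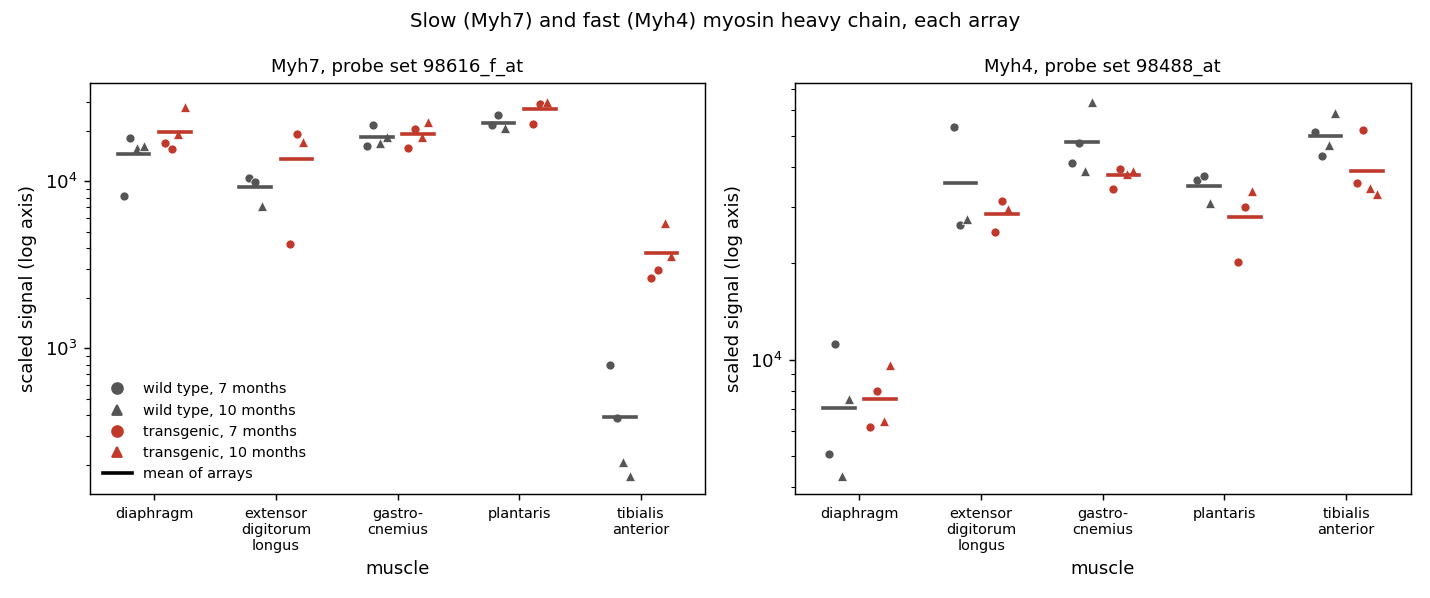
Scaled signal (log axis) of Myh7 probe set 98616_f_at (left) and Myh4 probe set 98488_at (right) on each of the 36 arrays, by muscle. Grey marks wild type and red transgenic, circles 7 months and triangles 10 months, and bars the mean of the arrays. Myh7 is low in wild-type tibialis anterior (173.4 to 794.8) and lies between 2654.3 and 5660.2 in the transgenic, while Myh4 is low in diaphragm of both genotypes.

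In transgenic mice the Myh7 signal of tibialis anterior was 2654.3 and 2932.6 at 7 months and 5660.2 and 3564.1 at 10 months. All 4 arrays lay above all 4 wild-type arrays, which 1.52% of the probe sets tested also did in this muscle. The mean rose from 390.0 ± 285.2 to 3702.8 ± 1359.3 (SD, n = 4 each), a ratio of 9.49, and the log2 difference was 3.24 ± 0.37 (SE, adjusted p = 5.48e-06). Only 0.139% of all probe sets tested, 13 in number, were called higher in transgenic tibialis anterior, and 98616_f_at was the only 1 of the 4 Myh7 and Myh4 probe sets among them.

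The other muscles held far more Myh7 signal at the start and showed smaller differences on the log2 scale. In diaphragm the transgenic arrays read 17043.2, 15548.0, 19107.6 and 27781.0, of which 2 lay above all wild-type arrays, with a log2 difference of 0.46 ± 0.37 (adjusted p = 0.709). In plantaris they read 22075.8, 29179.1 and 30046.6 (0.26 ± 0.43, adjusted p = 1), again overlapping with wild type. In gastrocnemius they read 15883.2, 20439.9, 18314.4 and 22659.8 (0.07 ± 0.37, adjusted p = 1), within about the same range as wild type. The 3 arrays of transgenic extensor digitorum longus spread most, at 4211.7, 19256.2 and 17169.7. The first lay below and the other 2 above every wild-type array of that muscle. The log2 difference there was 0.30 ± 0.43 (adjusted p = 0.959), and 1.06 ± 0.38 (adjusted p = 0.65) without the array at 4211.7. Without the 10-month array at 17169.7, whose raw scan file the labels describe as incomplete, it was -0.18 ± 0.51 (adjusted p = 1), so its sign rests on single arrays.

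As plain signal the transgenic mean exceeded the wild-type mean by 5208.2 in diaphragm, 4692.1 in plantaris, 4354.6 in extensor digitorum longus, 3312.8 in tibialis anterior and 953.3 in gastrocnemius. Except in tibialis anterior these are differences that did not pass on the log2 scale, and their order rested on single arrays. Leaving out 1 array at a time, the difference ran from 2571.2 (without 27781.0) to 6648.9 in diaphragm and from 1499.4 (without 19256.2) to 9021.7 (without 4211.7) in extensor digitorum longus. It ran from 3219.0 to 7204.4 in plantaris, from -158.5 to 2114.6 in gastrocnemius and from 2660.4 to 3662.3 in tibialis anterior. On the log2 scale the genotype difference in tibialis anterior exceeded the mean of the other 4 muscles by 2.96 ± 0.42 (adjusted p = 0.000455). That contrast called 3 probe sets higher, 0.0322% of those tested. The general test of whether the genotype effect differed among the 5 muscles gave F = 12.53 (adjusted p = 0.0208), and it too passed for 3 probe sets, or 0.0322%. Leaving out any 1 of 5 of the 8 tibialis anterior arrays took this F below the threshold (F from 9.64 to 10.5, adjusted p from 0.099 to 0.19). They were the second wild-type array at 7 months, both wild-type arrays at 10 months and both transgenic arrays at 10 months. The F also lost its call without the 2 arrays of high Gapdh ratio (11.3, adjusted p = 0.067), with a pseudocount of 200 (10.4, adjusted p = 0.097) and in limb muscles only (14.7, adjusted p = 0.054). The tibialis anterior difference itself passed in each of the 36 fits that left out an array (2.90 to 3.63).

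Averaged over the 5 muscles, the Myh7 difference was 0.87 ± 0.18 (adjusted p = 0.00785), where 0.858% of probe sets were called higher. Most of this came from tibialis anterior, at 3.24, against 0.07 to 0.46 in the other muscles. Of 18 transgenic arrays 14 exceeded the mean wild-type signal in that muscle, 4 of them from tibialis anterior. The call on this average did not hold when arrays of possibly shared pools were treated as correlated (0.90, adjusted p = 0.3) or with the hepatocyte signal as a covariate (0.89, adjusted p = 0.069). The arrays numbered 1 all have a filled scanner record and those numbered 2 an empty one, so the difference was also taken within each set. In tibialis anterior it was 3.07 ± 0.56 (adjusted p = 0.11) within the first set and 3.40 ± 0.37 (adjusted p = 0.016) within the second. The averages were 0.80 ± 0.25 (adjusted p = 0.18) and 0.99 ± 0.20 (adjusted p = 0.28). With scan day as a block the tibialis anterior difference was 3.34 ± 0.31 (adjusted p = 1.7e-06). In that block the 16 arrays with an empty record, whose day is unknown, were treated as 1 day.

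**Figure D2:**
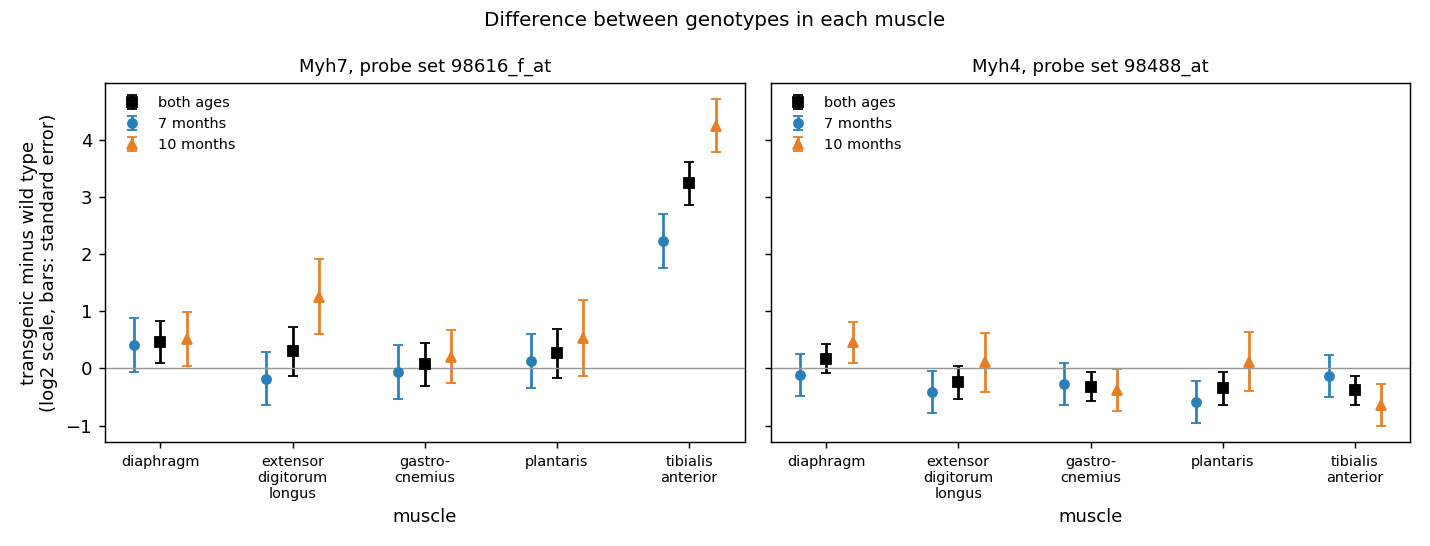
Transgenic minus wild type on the log2(signal + 50) scale, with its standard error, for the main probe set of Myh7 (left) and Myh4 (right) in each muscle. Black squares are both ages together, blue circles 7 months and orange triangles 10 months. For Myh7 the values in tibialis anterior are 3.24 together, 2.23 at 7 and 4.24 at 10 months, and all other values lie between -0.18 and 1.26.

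The spread of Myh7 among muscles was narrower in transgenic than in wild-type mice, at 7.32-fold between the highest and lowest mean. The order of the transgenic means was plantaris (27100.5 ± 4373.1), diaphragm (19870.0 ± 5472.2), gastrocnemius (19324.3 ± 2900.1), extensor digitorum longus (13545.9 ± 8150.7) and tibialis anterior (3702.8 ± 1359.3). Among these 5 muscles F was 10.43 (adjusted p = 0.00213, with 3.84% of probe sets passing). Transgenic tibialis anterior still lay below diaphragm (-2.05 ± 0.46, adjusted p = 0.0057), gastrocnemius (-2.23 ± 0.46, adjusted p = 0.0154) and plantaris (-2.73 ± 0.47, adjusted p = 0.00248), where 3.38%, 0.236% and 0.225% of probe sets were called lower. Against extensor digitorum longus its difference was -1.41 ± 0.47 (adjusted p = 0.781, with 0.15% called lower), which did not pass. No other pair of transgenic muscles passed.

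At the 2 ages the tibialis anterior difference was 2.23 ± 0.47 at 7 months (adjusted p = 0.144) and 4.24 ± 0.47 at 10 months (adjusted p = 3.53e-05), from 2 arrays in each group. Higher calls made up 0.0429% and 0.0536% of all probe sets in those comparisons. The wild-type mean went from 589.3 to 190.6 between the ages and the transgenic mean from 2793.4 to 4612.2. The change with age was -1.34 ± 0.47 in wild type (unadjusted p = 0.00906, adjusted p = 1) and 0.68 ± 0.47 in transgenic mice (adjusted p = 1). The test of the difference between ages, an increase of 2.01 ± 0.66, did not pass (unadjusted p = 0.00587, adjusted p = 1). It passed for 0% of probe sets in limma, with 182 of 9322 at an unadjusted p under 0.05.

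Over all muscles the Myh7 genotype difference was 0.51 ± 0.21 at 7 months (adjusted p = 0.559) and 1.35 ± 0.25 at 10 months (adjusted p = 0.0275), where 0.139% and 0.0429% of probe sets were called higher. These averages differed by 0.85 ± 0.32 (unadjusted p = 0.0158, adjusted p = 1). Age itself, averaged over muscles and genotypes, gave 0.08 ± 0.16 for Myh7 and -0.04 ± 0.13 for Myh4 (adjusted p = 0.953 and 0.975). In limma 0 probe sets, 0%, passed for age or for genotype by age, with 681 and 195 of 9322 at an unadjusted p under 0.05. Extensor digitorum longus and plantaris have 1 array for each genotype at 10 months, so those values lean on the spread of the other groups.

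The main Myh4 probe set separated diaphragm from the limb instead. Wild-type diaphragm read 5080.2, 11232.0, 4349.9 and 7515.4, and tibialis anterior read 51278.4, 43068.0, 46711.0 and 58636.7. The 3 wild-type arrays of extensor digitorum longus read 53151.8, 26269.0 and 27397.1, those of plantaris 36242.8, 37438.8 and 30875.9, and those of gastrocnemius 41149.9, 47513.5, 38894.9 and 63893.7. No limb array of either genotype overlapped with a diaphragm array, the lowest limb value being 20238.2 in transgenic plantaris. The share of all probe sets that separate diaphragm in this way was not counted. Wild-type means fell in the order tibialis anterior (49923.5 ± 6710.0), gastrocnemius (47863.0 ± 11293.0), extensor digitorum longus (35606.0 ± 15205.6), plantaris (34852.5 ± 3495.4) and diaphragm (7044.4 ± 3102.5), and the transgenic means kept that order. The first and last differed 7.09-fold in wild type and 5.14-fold in transgenic mice.

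Among wild-type muscles F was 28.9 for Myh4 (adjusted p = 3.04e-07) and among transgenic muscles 19.0 (adjusted p = 4.12e-05). Each limb muscle exceeded diaphragm in wild type, by 2.35 ± 0.32 in extensor digitorum longus, 2.71 ± 0.31 in gastrocnemius, 2.30 ± 0.32 in plantaris and 2.90 ± 0.31 in tibialis anterior (highest adjusted p = 7.97e-06). Higher calls made up 5.13%, 4.96%, 4.81% and 5.32% of all probe sets in these comparisons. In transgenic mice the same differences were 1.93, 2.21, 1.78 and 2.34 (highest adjusted p = 0.00149), with 0.923%, 1.66%, 0.451% and 1.41% of probe sets called higher. No pair of limb muscles passed in either genotype, the nearest being wild-type tibialis anterior over plantaris at 0.60 ± 0.32 (adjusted p = 0.777). With the limb muscles alone F was 2.21 in wild type and 1.75 in transgenic mice (adjusted p = 0.95 and 1), whereas Myh7 kept F = 60.7 and 12.2 (adjusted p = 1.8e-07 and 0.016).

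Diaphragm arrays also carried RNA of liver genes, at a level that differed between genotypes. The summed signal of 8 hepatocyte markers, such as Alb and Apoa1, ran from 37482.5 to 110415.8 on wild-type and from 4097.8 to 81708.4 on transgenic diaphragm arrays, and was at most 990.9 on any limb array. A covariate was taken as the mean log2 value of 9 probe sets of these markers. With it the Myh4 F among muscles was 8.63 in wild type (adjusted p = 0.034) and 10.7 in transgenic mice (adjusted p = 0.006). These markers were high on diaphragm arrays and low on limb arrays. The covariate therefore cannot separate liver RNA from the difference between diaphragm and limb muscles. The part of liver RNA in the diaphragm level of Myh4 was not tested.

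Between genotypes no Myh4 comparison passed. Transgenic arrays read 35649.2, 52088.8, 34292.4 and 32935.2 in tibialis anterior and 34194.7, 39474.5, 37842.1 and 38877.2 in gastrocnemius, and in each of these muscles 3 of 4 lay below every wild-type array. The 3 arrays of extensor digitorum longus read 24992.8, 31248.5 and 29494.0, those of plantaris 20238.2, 30001.7 and 33579.6, and the 4 of diaphragm 6153.5, 7993.5, 6432.8 and 9592.9. Ratios of transgenic to wild-type means lay between 0.776 and 0.803 in the 4 limb muscles and at 1.07 in diaphragm. On the log2 scale the differences were -0.38 ± 0.25 in tibialis anterior (adjusted p = 0.82), -0.35 ± 0.29 in plantaris, -0.32 ± 0.25 in gastrocnemius, -0.24 ± 0.29 in extensor digitorum longus and 0.17 ± 0.25 in diaphragm. The average was -0.22 ± 0.12 (unadjusted p = 0.0725, adjusted p = 0.327), and 3 of 18 transgenic arrays exceeded the mean wild-type signal in that muscle. The genotype effect on Myh4 was not shown to differ among muscles (F = 0.80, adjusted p = 1) or between ages (0.23 ± 0.25, adjusted p = 1).

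The second probe set of each gene showed only part of the muscle order of the first. Myh7 161547_f_at stayed between 23.4 and 248.0 over all 36 arrays (median 73.7), and in tibialis anterior, where 98616_f_at rose, its means were 60.4 ± 15.6 in wild type and 51.8 ± 7.5 in transgenic mice (n = 4 each). Its highest means were in plantaris, at 112.6 ± 35.9 and 163.2 ± 73.4 (n = 3 each), and its lowest in tibialis anterior, as for 98616_f_at. These differed 1.87-fold in wild type and 3.15-fold in transgenic mice. Myh4 161545_r_at lay between 74.3 and 558.3 (median 336.0), with diaphragm (309.7 ± 75.1 in wild type) no lower than gastrocnemius (217.6 ± 96.7) and tibialis anterior highest (404.4 ± 59.9). Neither passed any of its 64 genotype, muscle and age comparisons in limma, with 3 for 161547_f_at and 1 for 161545_r_at at an unadjusted p under 0.05.

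Over the 36 arrays the 2 Myh7 probe sets correlated with r = 0.38 and the 2 Myh4 probe sets with r = 0.04 (log2 values, muscles and genotypes mixed). The main Myh7 and Myh4 probe sets had r = -0.33, and 0.13 over the 28 arrays without tibialis anterior. Every genotype call for Myh7 therefore rests on 98616_f_at alone.

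**Figure D3:**
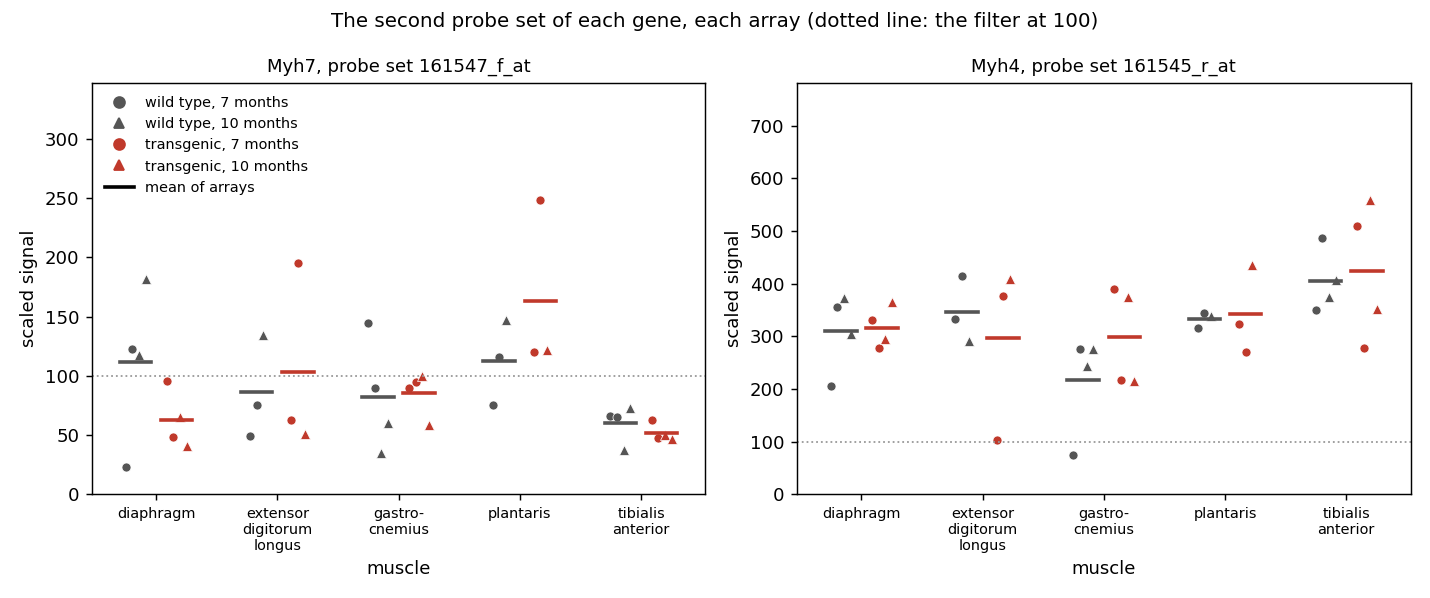
Scaled signal (linear axis) of Myh7 probe set 161547_f_at (left) and Myh4 probe set 161545_r_at (right) on each array, marked as in the plot of the main probe sets. The dotted line is the signal of 100 used in the filter. Myh7 161547_f_at lies mostly below that line. Its means are highest in plantaris and lowest in tibialis anterior, as on the main probe set, but differ less. Myh4 161545_r_at is highest in tibialis anterior, as on the main probe set, but not lowest in diaphragm.

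Other heavy chains gave few differences. Of the 8 genes listed, among them the non-muscle chain Myh14, 6 were on the array and 5 were tested. By genotype 0 of 5 passed in any muscle or on average (limma), with at most 1 at an unadjusted p under 0.05 in each of these comparisons. Of all probe sets 0.139% were called higher in tibialis anterior, 1.19% in diaphragm and 0.858% on average, so 0 of 5 is near those shares. Myh1, the fast IIX chain, read 24285.2 ± 1538.5 in wild-type and 19629.1 ± 1545.2 in transgenic tibialis anterior (n = 4 each), a log2 difference of -0.31 ± 0.18 (adjusted p = 0.799). It was the only one called among wild-type muscles (F = 5.68, adjusted p = 0.0215), where 11.4% of all probe sets passed. Its tibialis anterior level lay above diaphragm by 0.996 ± 0.22 (adjusted p = 0.00241), where 5.32% of all probe sets were called higher. Myh14, which is also found in skeletal muscle, had an average difference of 0.42 ± 0.12 (unadjusted p = 0.00129, adjusted p = 0.068). Myh3 and Myh8, the embryonic and perinatal chains, stayed at or below 279.3 and 240.9 on every array. Myh2, the IIA chain, reached 100 on only 4 arrays and was not tested.

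Myh6 was read separately, since its sequence is close to that of Myh7 and 98616_f_at may match more than its own gene. Its own probe set, 101071_at, read 50.4 ± 30.9 in wild-type and 88.0 ± 22.9 in transgenic tibialis anterior (log2 difference 0.50 ± 0.42, adjusted p = 0.843). Among 7 heart muscle markers the summed signal in that muscle ran from 1135.4 to 2067.6 in wild type and from 1129.3 to 1717.3 in transgenic mice. Only Myl7 and Tnnt2 stayed below 100 on all 8 arrays. Myh6 stayed below 100 on all wild-type but not all transgenic arrays, and Nppa, Nppb, Myl4 and Tnni3 reached 100 in both genotypes. Which sequences the probes of 98616_f_at match was not tested.

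Several genes of the slow programme rose in the same muscle as Myh7. Of 12 listed slow partners 9 were tested. In transgenic tibialis anterior 5 of 9 rose, where 0.139% of all probe sets were called higher, and 0 fell, with a median log2 difference of 1.54 against -0.03 for all probe sets. Myl2, the slow regulatory light chain, rose from 568.7 ± 235.4 to 5472.1 ± 1435.7 (3.21 ± 0.25, adjusted p = 3.53e-09). Tnnc1, troponin C of slow and heart muscle, rose from 164.5 ± 180.7 to 1118.6 ± 522.3 (2.75 ± 0.49, adjusted p = 0.00765), and Tnni1, slow troponin I, from 738.0 ± 59.9 to 2357.7 ± 640.8 (1.57 ± 0.27, adjusted p = 0.00409). Atp2a2, the calcium pump of slow fibres, went from 206.4 ± 86.8 to 683.9 ± 224.4 (1.54 ± 0.27, adjusted p = 0.00606). Tnnt1, slow troponin T, rose by 2.54 ± 0.26 on probe set 161361_s_at (adjusted p = 7.08e-07), but its second probe set 101383_at gave 0.31 ± 0.25 (adjusted p = 0.843). The other 4 were Casq2 (0.77), Tpm3 (0.82), Myl3 (0.52) and Sln (-0.30), none of which passed. Tpm3 is the gene of slow alpha tropomyosin, and whether its probes read the transgene was not tested.

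On average over muscles 4 of the 9 slow partners rose (median 0.67 against -0.03 for all probe sets, of which 0.858% were called higher), which were Myl2, Tnni1, Atp2a2 and Tnnt1. In diaphragm, extensor digitorum longus, gastrocnemius and plantaris 0 of 9 passed in any direction in limma, with at most 2 at an unadjusted p under 0.05 in each. Of all probe sets 1.19% were called higher in diaphragm. Shares for the limb muscles named are not given here, so these counts of 0 are not read as a trait of slow partners. In the order named, the medians of the 9 were 0.45, 0.29, 0.165 and 0.34. Those of all probe sets were 0.003, -0.04, -0.01 and -0.01. The interaction with muscle passed for Myl2 (F = 27.8, adjusted p = 2.79e-05) and Tnnt1 (F = 15.9, adjusted p = 0.00368), besides Myh7. Among wild-type muscles 6 of 9 lay lower in tibialis anterior than in diaphragm (median -3.35 against 0.17 for all probe sets, of which 7.49% were called lower). Against plantaris 7 of 9 lay lower (median -4.14 against 0.04 for all probe sets, of which 0.215% were called lower).

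Fast partners, like Myh4, were mostly higher in tibialis anterior than in diaphragm, and none passed by genotype in tibialis anterior. Of 13 listed 11 were tested, and 10 of 11 lay higher in wild-type tibialis anterior than in diaphragm (median 1.44), where 5.32% of all probe sets were called higher with a median of 0.17. General markers of striated muscle were also higher in that comparison, 3 of 5 being called, with a median of 1.04. How much of the fast-partner difference is shared with them was not tested. Actn3, the fast-fibre alpha-actinin, exceeded diaphragm by 3.50 ± 0.28 (adjusted p = 1.54e-09), Myoz1, a Z-disc protein, by 2.09 ± 0.18 (adjusted p = 9.04e-09) and Pvalb, a calcium buffer, by 1.96 ± 0.24 (adjusted p = 7.22e-07). By genotype 0 of 11 passed in tibialis anterior, where the median was -0.22, and 0 of 11 on average (-0.11), with 0 and 1 at an unadjusted p under 0.05. Of all probe sets 0.139% and 0.858% were called higher in these comparisons, with a median of -0.03 in each. The shares called lower are not given here, so 0 of 11 is not read as a trait of fast partners. In diaphragm 1 of 11 rose, Myoz1 (0.59 ± 0.15, adjusted p = 0.0232), where 1.19% of all probe sets were called higher. The diaphragm arrays are those on which the summed hepatocyte signal was lower in most transgenic than wild-type arrays, and its part in this call and in the diaphragm calls that follow was not tested.

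Of 28 listed regulators of fibre type 20 were tested. Rcan1, an inhibitor of calcineurin that calcineurin signalling itself induces, rose by 0.82 ± 0.11 on average (adjusted p = 4.12e-05) and by 1.14 ± 0.23 in diaphragm (adjusted p = 0.00509). Mef2c, a factor that binds MEF2 sites, rose in diaphragm by 1.27 ± 0.32 (adjusted p = 0.0211). Of the 20, 1 was called higher on average and 2 in diaphragm, where 0.858% and 1.19% of all probe sets were. In tibialis anterior, where Myh7 rose, 0 of 20 passed, near the 0.139% of all probe sets called higher there. Of the 20, 2 had an unadjusted p under 0.05, among them Rcan1 (0.86 ± 0.23, adjusted p = 0.239). Between wild-type tibialis anterior and diaphragm 2 of 20 were called higher and 1 of 20 lower, near the 5.32% and 7.49% of all probe sets. Sox6, a repressor of slow fibre genes, lay 1.18 ± 0.33 higher in tibialis anterior (adjusted p = 0.0143), and Ppp3ca, a catalytic subunit of calcineurin, 1.69 ± 0.31 higher (adjusted p = 0.000232). Ppara, a nuclear receptor that drives fatty acid oxidation, lay lower there (-1.01 ± 0.34, adjusted p = 0.0479).

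**Figure D4:**
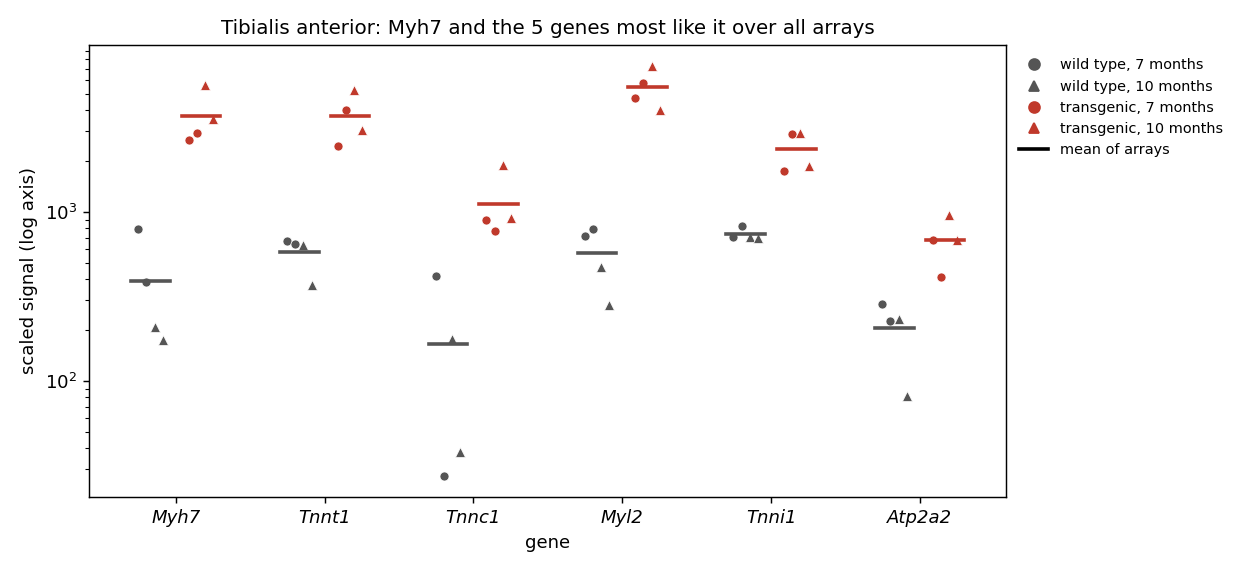
Scaled signal (log axis) in tibialis anterior of Myh7 (98616_f_at) and the 5 genes whose values over the 36 arrays correlate best with it. Each point is an array, grey for wild type and red for transgenic, with circles for 7 and triangles for 10 months and a bar at the mean. For all 6 probe sets the 4 transgenic arrays lie above the 4 wild-type arrays, which the choice of the 5 genes favours, since these arrays are among the 36 over which they were chosen.

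Over all 36 arrays the tested probe sets of other genes most like Myh7 98616_f_at were Tnnt1 (r = 0.98), Tnnc1 (0.98), Myl2 (0.98), Tnni1 (0.96) and Atp2a2 (0.94), all of them slow-programme genes. Tibialis anterior sets much of that likeness, and over the 28 arrays without it r was 0.93, 0.96, 0.77, 0.87 and 0.67. The lowest correlations were with Irf5 (-0.72), Cyfip2 (-0.69) and Irx3 (-0.66), which were -0.26, 0.06 and -0.35 without tibialis anterior. For Myh4 98488_at the highest were Ldha, muscle-type lactate dehydrogenase (0.97), Actn3 (0.96), Pygm, the glycogen phosphorylase of muscle (0.94), Pgm1, phosphoglucomutase (0.94), and Pvalb (0.93). Over the 28 limb arrays these were 0.94, 0.73, 0.86, 0.77 and 0.98. Csrp2, Krt19 and Rarres2 were the lowest (-0.92, -0.92 and -0.91), and -0.52, -0.27 and -0.27 in limb muscles alone. For the second probe sets no r exceeded 0.59, with Pom121 and Bola2 nearest to 161547_f_at (0.56 and 0.55) and Diaph2 and Cggbp1 nearest to 161545_r_at (0.59 and 0.55). All these correlations are descriptions over arrays that share muscles and genotypes.

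Striated muscle markers such as Acta1 and Ckm were high on every array, 5 of 6 being present, with summed signals from 55814.7 to 171516.5. Between 57.3 and 68.4% of probe sets reached a signal of 100. Gapdh probe sets at the 3′ and 5′ end had a ratio above 3 on 2 arrays, of wild-type gastrocnemius and wild-type plantaris, and at most 1.80 elsewhere. Only 4 of the 36 scanner records name a muscle, and 1 of these 4 differs from the label. The scanner record of the array labelled transgenic gastrocnemius at 7 months, replicate 1, names plantaris. Its Myh7 signal of 15883.2 is the lowest of the transgenic gastrocnemius arrays, and without it the gastrocnemius difference was 0.17 ± 0.41 for Myh7 and -0.29 ± 0.28 for Myh4 (adjusted p = 1 for each).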

How the data were processed

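RNA of 36 samples was measured on MG_U74Av2 arrays. The deposited values are intensities made with MAS5, per the submitters' processing notes, and their 2% trimmed means lay between 1500.93 and 1501.29. Each array was rescaled to a 2% trimmed mean of 500 and values were taken as log2(signal + 50). The 66 control probe sets and those below 100 on all but 5 or fewer arrays were left out. limma 3.58.1 (R 4.3.3, statmod 1.5.0) was fitted with an intensity trend to the 9322 remaining probe sets, with means for every combination of genotype and muscle plus age as a term within each muscle. Results by age came from a model with 20 group means. P-values were adjusted by Benjamini-Hochberg. The number of arrays limits the precision.

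Probe sets were named from the platform annotation, where 10833 carried 1 symbol, 396 several and 1193 none. The members and gene lists were chosen with earlier results of these data known. The genes named beside the members were the 5 highest and 3 lowest in Pearson correlation, the other heavy chains, and up to 4 probe sets of each other list past the threshold with the largest change, each gene by its brightest probe set. The slow partners that missed the threshold, the second Tnnt1 probe set and Rcan1 in tibialis anterior were named after their values were seen. Promoters are from RefSeq (GRCm38.p6). Alternatives covered scaling, pseudocount, filter, blocks, array weights, covariates and left-out arrays.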

Additional observations from a re-analysis of the deposited data

Results flagged for a closer look

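Among 24 groups of 4 arrays tested for an array far from the others, 2 held one, and chance gives about 1 in 20. On Myh4 98488_at 1 transgenic tibialis anterior array, at 7 months, read 52088.8, against 32935.2 to 35649.2 on the other 3, and without it the difference from wild type was -0.54 in place of -0.38. On Myh4 161545_r_at 1 wild-type gastrocnemius array, also at 7 months, read 74.3, against 244.3 to 276.1 on the other 3. For Myh7 98616_f_at the genotype effect differed among the 5 muscles by the test of the interaction itself (F = 12.5, adjusted p = 0.0208 in limma).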

How the results depend on the processing

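Over 36 settings that each left out an array, 1504 of 1552 values kept direction and call, 5 lost the call and 43 changed sign. Over the 19 other settings 716 of 769 did, 16 lost the call and 37 changed sign, and only differences below the threshold changed sign. The Myh7 98616_f_at difference in tibialis anterior kept its call in all of these except within replicate number 1 (3.07, adjusted p = 0.11).

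Without single arrays, Myh7 98616_f_at ranged from 9.64 to 19.2 for the interaction F, from -0.19 to 1.06 in extensor digitorum longus, from -0.02 to 0.18 in gastrocnemius and from -0.03 to 0.19 for age. Myh4 98488_at ranged from -0.04 to 0.46 in diaphragm, from -0.48 to 0.10 in extensor digitorum longus and from -0.10 to 0.02 for age. Myh7 161547_f_at ranged from -0.37 to 0.58 in extensor digitorum longus, from -0.06 to 0.25 in gastrocnemius, from -0.09 to 0.10 on average and from -0.11 to 0.01 for age. Myh4 161545_r_at ranged from -0.10 to 0.17 in diaphragm, -0.73 to 0.19 in extensor digitorum longus, -0.14 to 0.12 in plantaris, -0.12 to 0.21 in tibialis anterior and -0.04 to 0.14 on average. No age average could be had without the only array of a group at 10 months.

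Same-numbered arrays deviated together in 117 of 120 pairs of groups (correlation above 0.1, lowest 0.0066, median 0.33, highest 0.7). The number, which goes with a filled or empty scanner record, was not a term of the main model. This shared deviation therefore stayed in the residual spread of that model. With the replicate number as a block, Myh7 98616_f_at gave 3.24 in tibialis anterior, 0.87 on average and F = 13.5 for the interaction (adjusted p = 2.3e-06, 0.0029 and 0.01), and the 1 change was the sign of the Myh4 98488_at age average (0.02). That age average was also positive with quantile normalization (0.0048), correlated pools (0.01), scan day (0.05) and the hepatocyte covariate (0.01). The Myh7 98616_f_at interaction lost its call with a pseudocount of 200 (F = 10.4), without the 2 arrays of high Gapdh ratio (11.3), in limb muscles only (14.7) and within replicate numbers 1 and 2 (5.42 and 13.5). Its average lost the call with correlated pools (0.90), the hepatocyte covariate (0.89) and within numbers 1 and 2 (0.80 and 0.99), and its F among transgenic muscles within numbers 1 and 2 (4.39 and 12.9). The Myh4 98488_at F among wild-type and transgenic muscles lost the call within number 2 (9.28 and 7.14) and in limb muscles only (2.21 and 1.75). The last leaves out diaphragm and the numbered subsets have fewer arrays. For the other losses the cause was not tested.

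Of signs below the threshold, Myh7 98616_f_at turned with scan day in gastrocnemius (-0.19), plantaris (-0.08) and for age (-0.09), within number 1 in extensor digitorum longus (-0.03) and in limb muscles only for age (-0.01). Myh4 98488_at turned in diaphragm with array weights (-0.06), scan day (-0.16) and number 2 (-0.07), and in extensor digitorum longus with number 2 (0.25). Myh7 161547_f_at turned on average with correlated pools (-0.03), 20 group means (-0.07), scan day (-0.09) and the hepatocyte covariate (-0.06), in extensor digitorum longus with 20 means (-0.15) and number 1 (-0.34), and with number 1 in diaphragm (0.23), tibialis anterior (0.07) and for age (0.06). Myh4 161545_r_at turned in diaphragm with array weights (-0.02), scan day (-0.25), number 2 (-0.04) and the hepatocyte covariate (-0.07), and in plantaris with correlated pools (-0.03), array weights (-0.01), scan day (-0.48) and number 2 (-0.31). It also turned with scan day in extensor digitorum longus (0.20), tibialis anterior (-0.20) and on average (-0.13), and with number 2 in gastrocnemius (-0.29), tibialis anterior (-0.45) and on average (-0.24). Genotype by age was not run within replicate numbers. Signal over background limits 161547_f_at, below 100 on most arrays.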
